A study of Homo sapiens with 3 samples.

Results

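Keratin genes were examined in the parental lung cancer cell line H1975 and in 2 osimertinib-resistant (OR) cell lines selected from it, OR1 and OR2. A keratin gene was any gene whose symbol on the array was KRT followed by a number and, in a few cases, a letter. There were 55 such genes among the 43316 genes on the array, measured by 64 of 58200 probes. The brightest probe stood for each of the 8 keratins with several probes. Keratin-associated genes (KRTAP), keratin pseudogenes and antisense genes were not counted as keratins.

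H1975 is an established non-small cell lung cancer cell line that harbors mutated EGFR and is labelled osimertinib sensitive. OR1 and OR2 were derived from it independently under osimertinib, an EGFR kinase inhibitor, whose dose was raised in steps to 2 μmol/L over 4 months. All 3 lines were grown in the same medium with fetal bovine serum, and whether drug was present when RNA was taken is not given in the sources used here. The study's methods call OR1 and OR2 clones but describe no isolation of single cells. Each resistant line is the outcome of 1 selection. Total RNA of each line was hybridized to 1 Agilent single-color array, so each line is 1 sample, and a difference between 2 lines has no replicate check and no p-value. Both resistant lines were compared with the same H1975 array, and a deviation of that array enters both ratios.

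Keratins are the intermediate filament proteins of epithelial cells. Each filament is built from pairs of an acidic type I and a basic type II keratin, and the pairs differ between epithelia. Simple, single-layered epithelia such as those of the lung airways and glands use KRT8 and KRT18 with KRT7 and KRT19. The basal layer of stratified epithelia uses KRT5 and KRT14, the layers above it KRT1 and KRT10 in the epidermis or KRT4 and KRT13 in the mucosa, and KRT6, KRT16 and KRT17 are induced there by wounding and hyperproliferation. A further large set builds the hair shaft and its sheaths. In human DNA the type I genes lie together on chromosome 17 and the type II genes on chromosome 12, where the type I gene KRT18 lies as well.

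The intensity of a spot is its brightness after background correction by the scanner software. Below, what a gene read is the intensity of its probe as deposited, before scaling, and ratios were taken after each array was scaled on its 75th percentile (H1975 157, OR1 138, OR2 162). No spot was saturated, and no keratin spot was marked as an outlier. A probe was taken as expressed where the scanner software called it well above background, which applied to 45.6% of probes in H1975, 45.9% in OR1 and 45.8% in OR2. Where one line was not well above background, the ratio is a bound, written as at least or at most, and where both were not, no ratio was computed. Intensities of different probes were not compared with each other but only added up for marker lists, since probes differ in how brightly they bind. The technical SD of a log2 ratio comes from the error estimate of the scanner software. Its median over all genes was 0.20 in each comparison. For bright probes it hardly varied, at 0.204 for KRT7, KRT18 and KRT19 alike. There it acts as a near-constant allowance and is not a spread measured between repeats. It refers to the measurement of 1 RNA sample, not to variation between cultures.

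Of the 55 keratins, 27 passed background on 1 array or more, 19 on all 3 and 28 on none. H1975 had 21 keratins above background, OR1 had 24 and OR2 had 24. The 28 dim keratins had intensities between 2.55 and 12.3 in H1975, between 2.30 and 11.1 in OR1 and between 2.59 and 13.1 in OR2. Among the dim genes were KRT5, the basal type II partner of KRT14, and KRT6A and KRT6B, the inducible partners of KRT16 and KRT17. Also dim were KRT1 and KRT2 of the epidermis, KRT12 of the cornea and KRT20 of the gut epithelium.

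The stratified keratins KRT13, KRT14, KRT16 and KRT17 were higher in both resistant lines and the simple keratins KRT7 and KRT19 were lower, while the simple keratins KRT8 and KRT18 had ratios between 0.806 and 1.12. In OR1, 7 of the 26 keratins with a ratio were raised, meaning a ratio to H1975 of at least 2 and a probe well above background in OR1, against 9.17% of 21868 genes. In OR1, 4 of 26 were lowered, meaning a ratio of at most 0.5 and a probe well above background in H1975, against 9.58% of all genes. In OR2, 6 of the 25 keratins with a ratio were raised, against 7.72% of 21688 genes, and 4 were lowered, against 8.7%. As shares of the keratins with a ratio, the raised ones were 26.9% in OR1 and 24.0% in OR2 and the lowered ones 15.4% and 16.0%. A keratin that is dim in one line enters these shares only through the line where it is bright, so they describe the list and are not a test of it. KRT13, KRT14, KRT16, KRT17 and KRT32 were raised in both lines, 5 of 27 keratins above background on at least 1 array, against 5.09% of 22417 genes. KRT7, KRT19, KRT83 and KRT86 were lowered in both lines, 4 of 27, against 6.32% of genes. Scaled on the spike-in probes, measured OR1 ratios were lower by the same step of 0.60 on the log2 scale, which put KRT17 at 15.6 and KRT7 at 0.108.

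**Figure D1:**
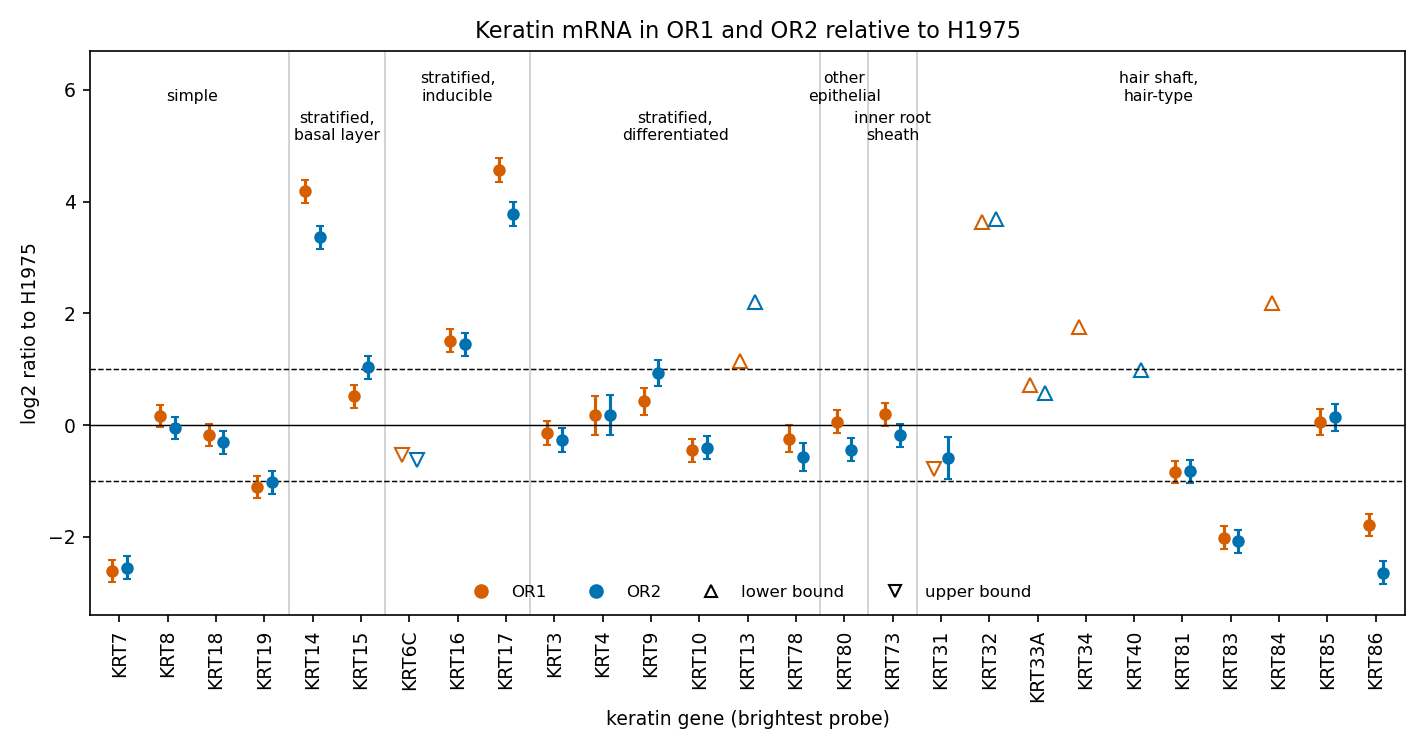
Ratio to H1975, in OR1 and OR2, of each keratin above background on 1 array or more, on a log2 axis and by keratin group. Error bars are the technical SD, triangles mark bounds, dashed lines the ratios of 2 and 0.5, and KRT17 and KRT14 lie highest among measured ratios (23.6 and 18.2 in OR1) while KRT7 lies near the bottom in both lines (0.164 and 0.170).

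The probes behind the largest changes are given first, because related keratins have similar coding sequences and a probe could bind more than 1 of them. The KRT14 probe (chr17:39740013-39740072, minus strand, hg19, NM_000526) and the KRT16 probe (chr17:39767216-39767364, minus strand, hg19, NM_005557, across an exon junction since its span exceeds its 60 bases) come from the same stretch of the 2 genes. Over the 43 bases where they overlap, 32 (74.4%) were identical, shown in capitals.
KRT14: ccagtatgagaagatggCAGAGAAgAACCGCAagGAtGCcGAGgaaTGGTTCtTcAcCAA
KRT16: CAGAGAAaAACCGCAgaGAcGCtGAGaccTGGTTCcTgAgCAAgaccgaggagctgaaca
Of the 1485 pairs of keratin probes, aligned without gaps over at least 40 bases, this pair and that of KRT6C and KRT75 were the 2 at or above 60% identity, and the median pair reached 39.5%. Probes were aligned with other probes only, not with the whole RNA of other keratins. A match of a probe to another keratin outside that keratin's own probe, such as KRT17 to KRT14, would be missed. How much RNA of one gene binds the probe of another was not tested. Intensities of KRT14 and KRT16 are given below beside this similarity. The probe of KRT17 (chr17:39776976-39777035, minus strand, hg19, NM_000422) is shown because it had the largest measured ratio of a keratin in each line.
KRT17: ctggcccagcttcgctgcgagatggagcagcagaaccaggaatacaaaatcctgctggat

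Among the 5 simple keratins, KRT7 fell most. KRT7, the type II keratin of glandular and lung epithelia used to classify adenocarcinomas, read 131484 in H1975 against 18866 in OR1 and 22949 in OR2. H1975 was far brighter than both resistant lines, which differed little from each other. OR1 had a ratio to H1975 of 0.164 and OR2 one of 0.170, each with a technical SD (log2) of 0.20. KRT19, a type I keratin of simple and ductal epithelia that lacks the usual tail, read 149897 in H1975 against 60841 in OR1 and 75838 in OR2. Again H1975 was the brightest line, with ratios of 0.463 in OR1 and 0.492 in OR2. The OR2 value lies just inside the ratio of 0.5 and within 1 technical SD (0.20, log2) of it, and it was 0.57 under quantile scaling.

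KRT8 and KRT18, the keratin pair of simple epithelia, changed less. KRT8 read 9534 in H1975 against 9361 in OR1 and 9439 in OR2, close to level across the lines, and its ratios were 1.12 and 0.964. Its direction depended on the scaling, with a ratio in OR1 of 0.982 without scaling and 0.738 on the spike-in probes, and of 1.11 in OR2 under quantile scaling. KRT18 read 74998 in H1975 against 58112 in OR1 and 62076 in OR2, with ratios of 0.884 and 0.806. A second KRT18 probe gave 0.867 and 0.826, and a second KRT8 probe gave 1.02 and 0.969. One more probe named KRT8 (NR_045962, chr12:53343241-53343300, hg19) lies next to KRT18 and away from the other KRT8 probes, near position 53291026, and gave 0.673 in OR1 and 0.634 in OR2. KRT20, found mainly in gut and urothelial cells, passed background on none of the arrays, with intensities of 2.77, 2.58 and 2.78 in H1975, OR1 and OR2. The median log2 ratio of the 4 simple keratins above background was −0.64 in OR1 and −0.67 in OR2, against 0.04 and −0.06 over all genes. Each median lies midway between KRT18 and KRT19 and is the ratio of no gene. KRT7 and KRT19 were lowered, and KRT8 and KRT18 were not.

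**Figure D2:**
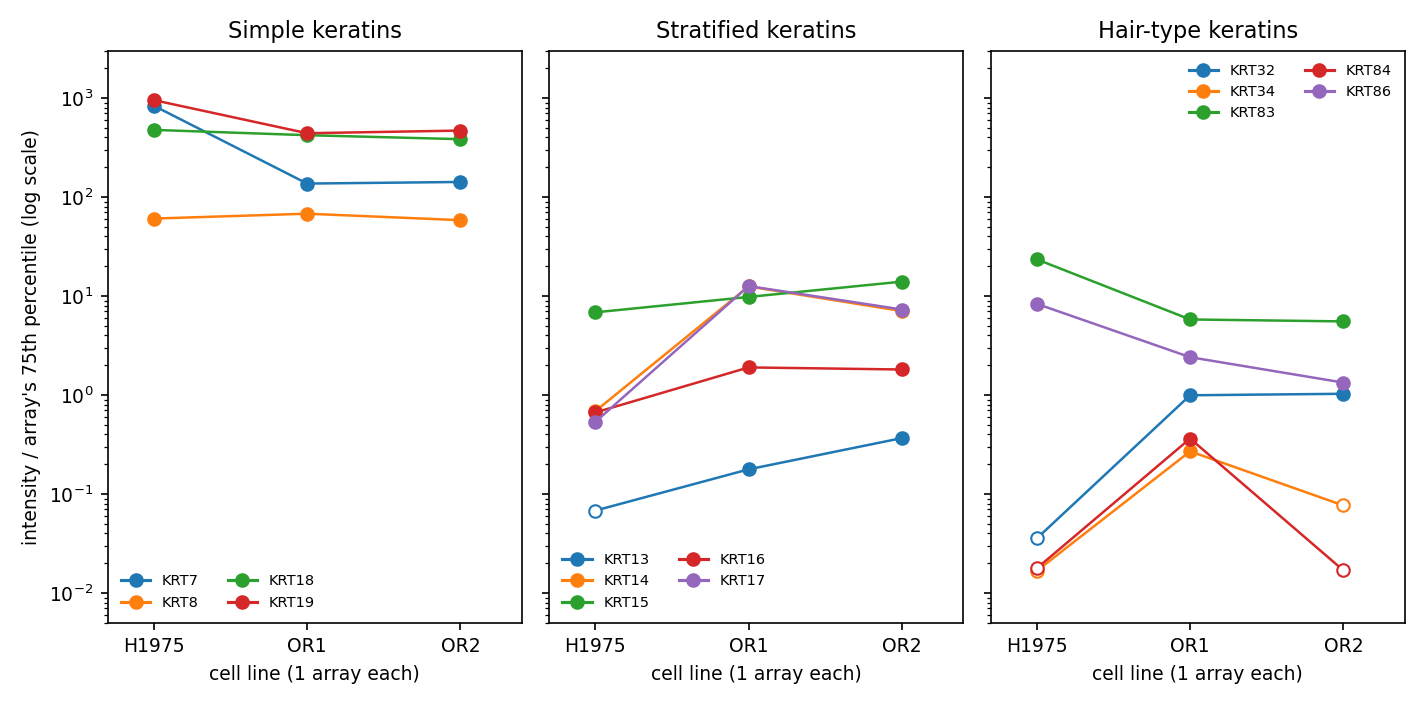
Intensity divided by the 75th percentile of its array (log axis) for the named simple, stratified and hair keratins above background on at least 1 array, 1 point per array and a line per gene, with open points not well above background. KRT14 and KRT17 climb from H1975 to OR1 by 18.2-fold and 23.6-fold, KRT7 falls to a ratio of 0.164, and KRT8 and KRT18 stay nearly level.

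In the basal layer group, KRT14 was raised in both lines while its usual partner KRT5 stayed dim. KRT14, the type I keratin of basal keratinocytes, read 108 in H1975 against 1724 in OR1 and 1140 in OR2. Both resistant lines were well above H1975, OR1 more than OR2, with ratios of 18.2 and 10.3 and a technical SD (log2) of 0.21. A second KRT14 probe (chr17:39742569-39742628, hg19), which is dimmer, read 21.9 in H1975, 64.9 in OR1 and 62.4 in OR2. It moved the same way by smaller ratios, 3.38 and 2.77. KRT15, a type I keratin of basal cells and of the hair follicle bulge, read 1077 in H1975 against 1351 in OR1 and 2261 in OR2. It was highest in OR2, where its ratio of 2.04 lies just inside the limit, and below the limit in OR1 at 1.43, or 0.943 on spike-in scaling. With normexp background correction the OR2 ratio was 1.99, just outside. KRT5 was not well above background in any line, with intensities of 2.76, 2.48 and 2.84 in H1975, OR1 and OR2.

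In the inducible group, the type I genes KRT16 and KRT17 were raised in both lines, and the type II genes KRT6A and KRT6B were dim on all 3 arrays. KRT17, a keratin of hair follicles and nails that appears in wounded epidermis, read 84.1 in H1975 against 1740 in OR1 and 1182 in OR2. OR1 was the brightest line and H1975 the dimmest, with ratios of 23.6 in OR1 and 13.7 in OR2 and a technical SD of 0.21 (log2) in both. These were the largest measured keratin ratios in each line, and with normexp they were 13.02 and 8.05. KRT16, which pairs with KRT6 in wounded and hyperproliferative skin, read 105 in H1975 against 262 in OR1 and 293 in OR2. The resistant lines differed little and were brighter than H1975, with ratios of 2.85 and 2.72. Scaled on the spike-in probes, the OR1 ratio of KRT16 was 1.88, below the limit. KRT6C was above background in H1975 alone, at 19.0 against 3.24 in OR1 and 3.36 in OR2, so that its ratios, at most 0.686 and at most 0.647, did not pass the limit.

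Among the 11 keratins of differentiated layers, KRT13 was the one past the ratio. KRT13, the type I keratin of suprabasal cells in stratified mucosa, read 10.7 in H1975, where it was not well above background, against 24.5 in OR1 and 59.4 in OR2. Its level was low throughout and highest in OR2, with ratios of at least 2.22 for OR1 and at least 4.60 for OR2. With normexp, which compresses dim probes, these were 1.34 and 1.70, and the OR1 value was 1.95 without scaling and 1.47 on the spike-in probes. KRT4, its mucosal type II partner, read 21.6, 21.4 and 25.0 in H1975, OR1 and OR2, with a ratio of 1.13 in both resistant lines. KRT10, the type I keratin of suprabasal epidermis, read 10729, 6882 and 8303, with ratios of 0.731 and 0.753. The other 3 above background in this group, KRT3, KRT9 and KRT78, had ratios between 0.841 and 1.34 in OR1 and between 0.673 and 1.90 in OR2. Over the 11 stratified keratins above background, of 19 on the array, the median log2 ratio was 0.42 in OR1 and 0.93 in OR2. In both lines the median gene was KRT9, of palm and sole epidermis, so each median is the ratio of 1 probe. The KRT9 probe read 41.7, 49.0 and 81.5 in H1975, OR1 and OR2, and its listed position spans 18 bases against a probe length of 60. On spike-in scaling, which shifts the median of all genes in OR1 by −0.60, the stratified median in OR1 was −0.18. By subgroup it was 2.35 and 2.20 in the 2 basal genes, 1.51 and 1.44 in the 3 inducible genes, and 0.01 and −0.05 in the 6 genes of differentiated layers.

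Hair keratins went both ways. KRT32, a type I keratin of the hair cuticle, read 5.61 in H1975, where it was not well above background, against 137 in OR1 and 166 in OR2. Both resistant lines were brighter, by at least 12.5-fold (OR1) and 12.9-fold (OR2), with a technical SD of 0.71 (log2) in each. KRT34, a type I keratin of the hair cortex, read 2.63 in H1975 against 37.3 in OR1 and 12.4 in OR2. It was well above background in OR1 alone, where it was at least 3.38-fold higher than in H1975, with a technical SD of 1.46 (log2). KRT84, a type II keratin of hair and nail, read 2.80, 50.1 and 2.74 and was likewise above background in OR1 alone, at least 4.55-fold higher, with a technical SD of 1.46 (log2) and a dim H1975 spot. With normexp the ratios in OR1 were 3.17 for KRT32, 1.57 for KRT34 and 1.75 for KRT84, so KRT34 and KRT84 did not pass. KRT40, a type I hair keratin, was above background in OR2 alone, at 25.5, with a ratio of at least 1.97, just outside the limit. The second probe of KRT40 was not above background on any array.

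Of the type II hair keratins, KRT83 and KRT86 were lowered in both resistant lines. KRT83, of the hair cortex, read 3693 in H1975 against 800 in OR1 and 896 in OR2, with ratios of 0.247 and 0.236. Its second, dimmer probe read 66.5, 18.7 and 8.07, with ratios of 0.320 and, for OR2, at most 0.185. KRT86, also of the hair cortex, read 1312 in H1975 against 333 in OR1 and 216 in OR2, the lowest in OR2. The ratios of KRT86 were 0.289 and 0.160. KRT81, their close relative in the cortex, read 10294, 5042 and 5955 and lay just outside the limit, at 0.559 in OR1 and 0.563 in OR2. These 3 genes are near copies of each other, and signal from one in the probe of another was not tested beyond the probe alignment above. KRT85, an early hair shaft keratin, read 46.5, 42.3 and 52.4, with ratios of 1.04 and 1.10.

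By filament type, the keratins raised in both lines were all type I and none of the type II keratins was raised in both. Of 29 type I keratins, 14 were above background on at least 1 array, 5 were raised in both lines and 1, KRT19, was lowered in both. Of 26 type II keratins, 13 were above background, 0 were raised in both and 3 were lowered in both. Over all genes the share raised in both was 5.09% and the share lowered in both 6.32%, and the difference between the types was not tested. For the 8 type I keratins above background on all 3 arrays the median log2 ratio was 0.47 (OR1) and 0.98 (OR2), and for the 11 such type II keratins −0.15 and −0.44. Over every type I gene with a ratio the medians were at least 0.71 and at least 0.98, themselves bounds of genes that were dim in H1975, and over every type II gene −0.15 and −0.51. KRT14, KRT13 and KRT16 were raised in both lines while the partners that pair with them in skin and mucosa, KRT5, KRT4 and KRT6A, were dim or had a ratio near 1. KRT7 was lowered while KRT18, a type I partner of it in simple epithelia, had ratios above 0.8. KRT19, the other type I simple keratin above background, was lowered as KRT7 was (0.463 in OR1 and 0.492 in OR2).

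Along the chromosomes, some raised and some lowered keratins lay side by side. On chromosome 17 the 28 keratin probes spanned 964 kb of hg19, from 38812755 to 39777035. Ordered by position, the last 10 from KRT32 to KRT17 held all 5 genes raised in both lines, together with KRT15, raised in OR2, and KRT19, lowered in both. KRT14, KRT16 and KRT17 were the last 3 in this order and lie side by side. On chromosome 12 the 27 keratin probes spanned 783 kb, from 52563485 to 53346554, and KRT7, KRT81, KRT86 and KRT83 were the second to the fifth, also side by side. These had ratios from 0.164 to 0.559 in OR1 and from 0.160 to 0.563 in OR2. Other genes within 1 Mb of the keratins were counted beside them, against the 5.09% and 6.32% of all genes raised and lowered in both lines. Every symbol starting with KRT was left out of this count, so keratin-associated genes are not in it. On chromosome 17 there were 70 of them above background, with medians of −0.36 and −0.33 for the log2 ratios of OR1 and OR2, of which 2 were raised in both lines and 8 lowered in both. On chromosome 12 there were 54, with medians of −0.23 and −0.52, of which 3 were raised and 10 lowered in both. Whether gene copy number differs between the lines over these stretches was not tested.

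**Figure D3:**
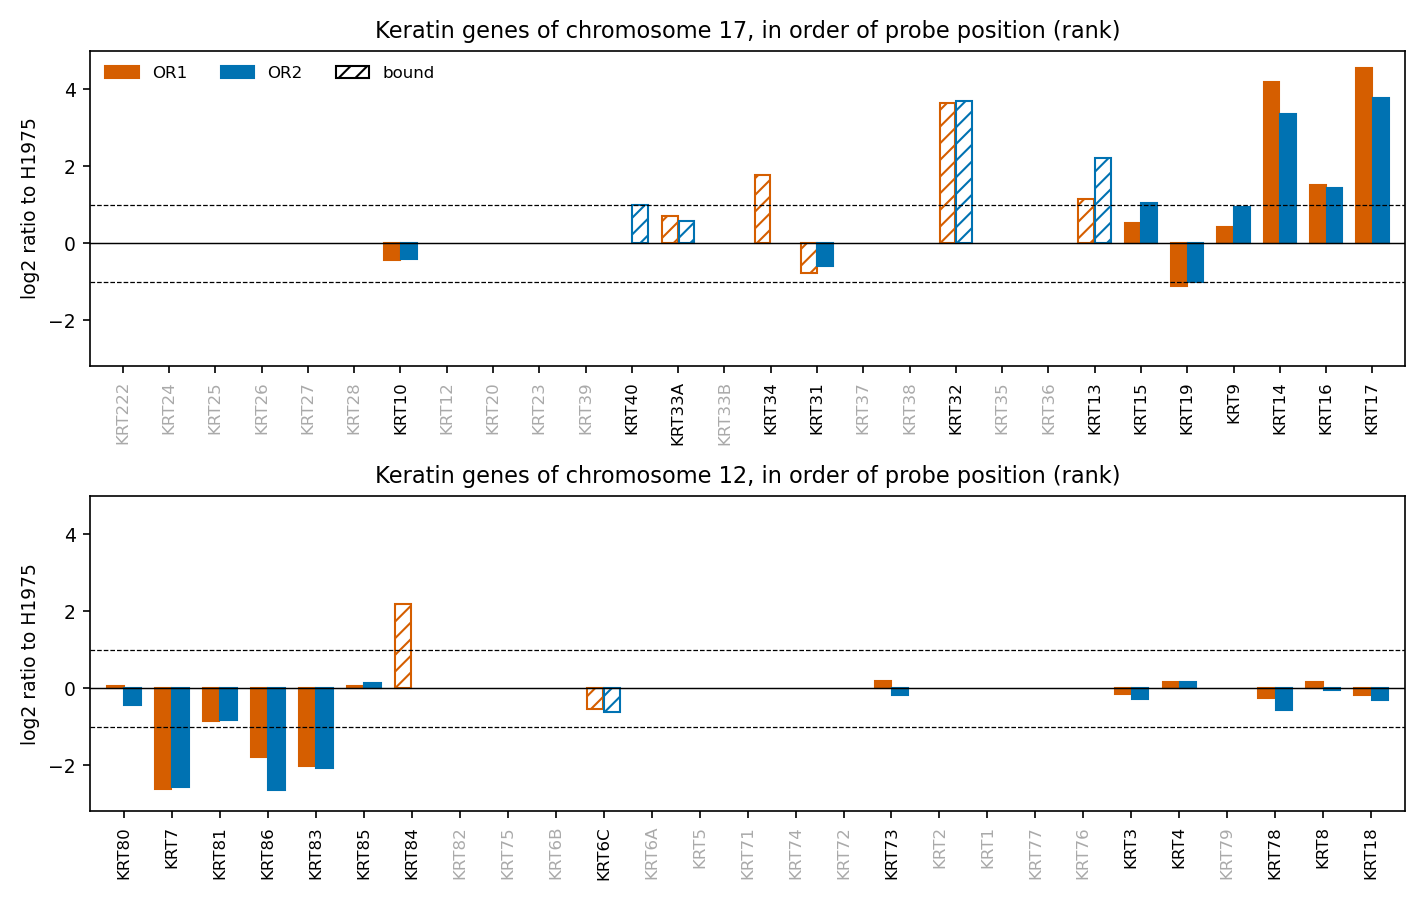
Log2 ratio to H1975 in OR1 and OR2 of the keratins of chromosome 17 and of chromosome 12 in their order along the chromosome, with bounds hatched and keratins dim on all arrays left blank. The right end of the chromosome 17 order holds KRT14, KRT16 and KRT17, and the left of the chromosome 12 order holds KRT7, KRT81, KRT86 and KRT83, all below 0.

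Promoter sequence in the RefSeq table (GRCh38.p14) matched 34 keratins in 38 entries. Of the genes raised in both lines 1, KRT32, had an entry, and of those lowered in both 0, so the motifs describe keratin genes at large. In the 250 bases before the start site, TATAAA, the TATA box, was found on either strand in 21 of 38 keratin entries (55.3%) against 10.7% of 35116 promoters. GGGCGG, the GC box, was in 10.5% against 42.6%. TGANTCA, bound by AP-1 factors, was in 0 of 38 against 6.57%. GCCNNNGGC, the core of the AP-2 site, was in 13.2% against 19.8%, and CACCTG, an E-box bound by SNAI and ZEB factors, in 15.8% against 17.5%. KRT32 and KRT34, both dim in H1975 and above background in OR1, are shown as examples that differ in the TATA box, with TATAAA in capitals. KRT32 (chr17:41467387-41467636, minus strand) holds none of the 5 motifs, and KRT34 (chr17:41382307-41382556, minus strand) holds TATAAA starting 31 bases before the start site.
KRT32: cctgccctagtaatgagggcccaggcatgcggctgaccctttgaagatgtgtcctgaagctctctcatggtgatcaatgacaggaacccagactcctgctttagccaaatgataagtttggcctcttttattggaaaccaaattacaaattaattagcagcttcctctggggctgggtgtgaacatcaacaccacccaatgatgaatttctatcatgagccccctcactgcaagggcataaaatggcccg
KRT34: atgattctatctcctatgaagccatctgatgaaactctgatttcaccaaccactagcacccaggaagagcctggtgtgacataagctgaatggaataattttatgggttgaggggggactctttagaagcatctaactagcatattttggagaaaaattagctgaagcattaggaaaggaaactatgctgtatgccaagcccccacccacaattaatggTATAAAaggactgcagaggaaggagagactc

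OR1 and OR2 were also compared with each other. Of 26 keratins with a ratio, 1 was at least 2-fold higher in OR2 and 2 were at most 0.5-fold, against 2.48% and 2.89% of 21451 genes. KRT13 was higher in OR2, with a ratio to OR1 of 2.07. KRT34 and KRT84 were lower in OR2, with ratios of at most 0.289 and at most 0.215. Neither was well above background in OR2, and the technical SDs (log2) were 0.39 and 1.46. With normexp, 0 keratins passed the ratio between the resistant lines. KRT14, KRT17 and KRT86 were also lower in OR2 by ratios of 0.564, 0.579 and 0.554, short of the limit. KRT7, KRT19 and KRT83 were within 1.06-fold of each other in OR1 and OR2, with ratios of 1.04, 1.06 and 0.956, each smaller than the technical SD of 0.20 (log2).

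Genes that work with keratins were taken from lists of other intermediate filaments, filament linkers, regulators and the cornified envelope. Each count below stands against 5.09% of all genes raised in both lines and 6.32% lowered in both, and no list was tested. Of the 15 other intermediate filament genes, 11 were above background, 0 were raised in both lines and 1 was lowered in both, INA, a neuronal filament gene, with ratios of 0.330 and 0.395. VIM, the vimentin filament of mesenchymal cells, read 32442 in H1975, 44860 in OR1 and 61140 in OR2, with ratios of 1.58 and 1.83, short of the limit. Of 15 genes that link keratins to desmosomes, hemidesmosomes or other partners, 14 were above background, and 2 were raised and 2 lowered in both lines. Raised were the plakin EPPK1 (5.10 in OR1 and 4.40 in OR2) and the desmosomal PKP2 (5.97 and 3.13). Their H1975 intensities were low though above background, at 27.4 for EPPK1 and 27.9 for PKP2. JUP, or plakoglobin, with ratios of 0.173 and 0.215, and PKP3, with 0.394 and 0.341, both desmosomal, were lowered.

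Of 14 regulators of keratin and epithelial genes, 10 were above background, 0 were raised and 5 were lowered in both lines. GRHL2, a grainyhead factor of epithelial cells, read 467 in H1975, 2.34 in OR1 and 2.58 in OR2, with ratios of at most 0.0278 and 0.0263. OVOL1 and OVOL2, zinc finger factors of epithelial differentiation, were likewise above background in H1975 alone. Their ratios were at most 0.00976 and 0.00921 for OVOL1 and at most 0.00802 and 0.00757 for OVOL2, in OR1 and OR2. GRHL1, another grainyhead factor, had ratios of 0.143 and 0.268. TFAP2A, which encodes the AP-2 alpha factor, was raised in OR2 alone (2.77, against 1.48 in OR1), and TP63, the master regulator of basal keratinocytes, was dim on all 3 arrays. Of 16 cornified envelope genes 10 were above background, with 1 raised in both lines, TGM1, a transglutaminase that crosslinks the envelope (2.47 and 2.29), and 3 lowered. The envelope precursors IVL, SPRR1B and SPRR3 were the lowered ones, with IVL at 159 in H1975 against 2.71 in OR1 and 3.01 in OR2. FLG, or filaggrin, which bundles keratin filaments, was raised in OR1 alone, by at least 2.98-fold.

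**Figure D4:**
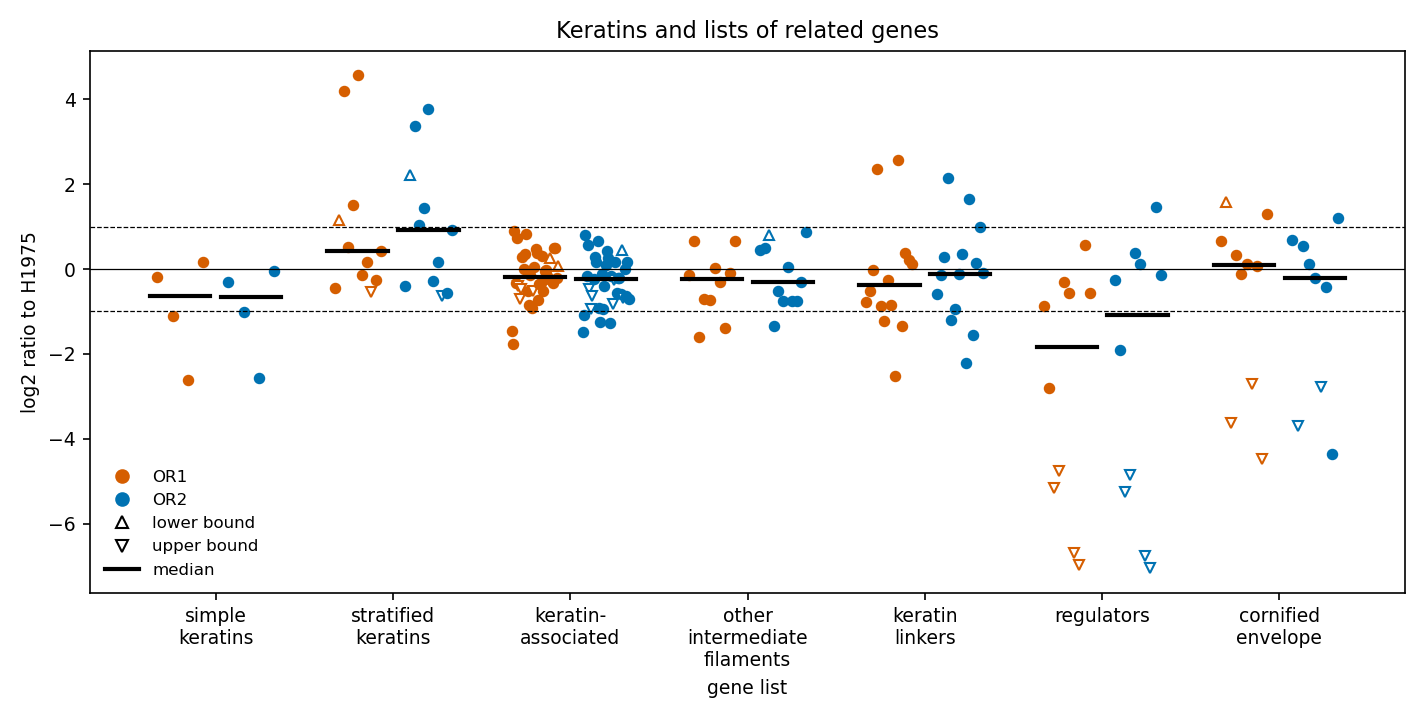
Log2 ratio to H1975 of the simple and stratified keratins, the keratin-associated genes and the 4 related lists in OR1 and OR2, 1 point per gene with a ratio, triangles for bounds and a black line for the median. The regulators OVOL1 and OVOL2 lie lowest, with ratios of at most 0.00976 and 0.00802 in OR1, and the stratified keratin KRT17 highest, at 23.6 in OR1.

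The labelled cell type was checked against marker genes. Of 9 lung epithelial markers, 4 of them keratins, 8 were above background and the surfactant gene SFTPB was not, and the epithelial adhesion genes EPCAM and CDH1 had ratios of 0.0370 and 0.0205 in OR1 and 0.0725 and 0.0800 in OR2. NKX2-1, the lung lineage factor, had ratios of 0.252 in OR1 and 1.36 in OR2. Of 5 keratinocyte markers, KRT14 and IVL were above background and moved in opposite directions. KRT5, TP63 and DSG3 were dim on all 3 arrays. The summed unscaled intensity of all 5 probes was 280 (H1975), 1736 (OR1) and 1156 (OR2). KRT14 alone supplied 108, 1724 and 1140 of these sums, so the rise of the sum is that of KRT14 and not of the list. Of 8 fibroblast markers, 4 were above background on at least 1 array, and the summed unscaled intensity of all 8 was 692, 690 and 110. They went different ways: COL1A1 had ratios of 1.45 in OR1 and 0.183 in OR2, COL1A2 had 0.162 and at most 0.0615, LUM was at least 5.43-fold higher in OR1, and FAP was above background in H1975 alone. Their part in the keratin ratios was not tested. In RNA of a whole culture, a change in the share of cells that express a keratin and a change in its RNA per cell cannot be told apart.

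**Figure D5:**
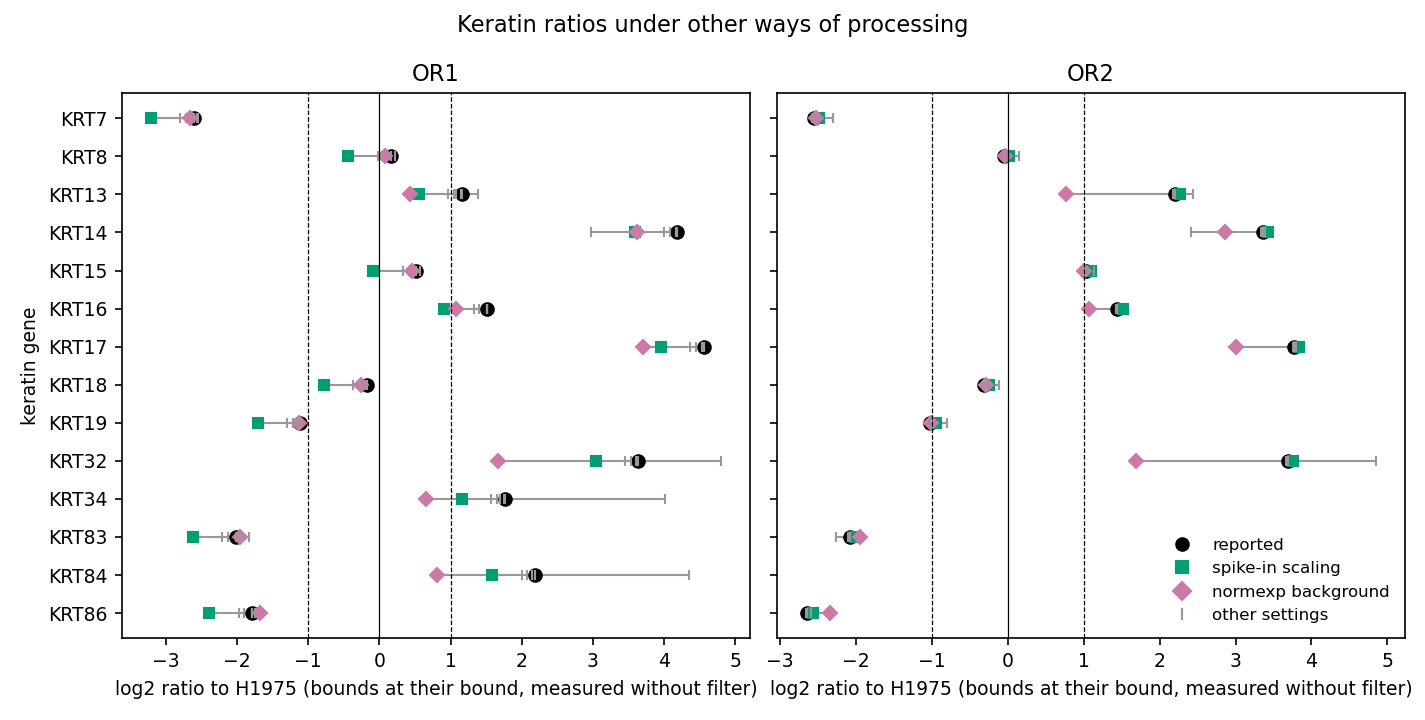
Ratio to H1975 of the named keratins in OR1 and OR2 as reported and under other scalings, background corrections, filters and probe choices, on a log2 axis with dashed lines at the ratios of 2 and 0.5. KRT7, KRT14, KRT17, KRT32, KRT83 and KRT86 stay on the same side of their limit in every setting drawn, and KRT13, KRT15, KRT16, KRT19, KRT34 and KRT84 cross it in at least 1.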

How the data were processed

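The authors extracted total RNA from each line and hybridized labelled complementary RNA to 1 Agilent array per line, all 3 on 1 slide, and deposited the intensity of every spot. The software was Feature Extraction, version 9.5.1.1 in the submitters' processing notes and 10.7.1.1 in the file headers. Its processed intensity, corrected for background and spatial trend but not scaled between arrays, was used as deposited. A second deposited table holds normalized intensities, whose normalization is not given in the sources used here. It served as an alternative.

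Control spots and outlier spots were left out, repeated spots were averaged on the log2 scale, and the 75th percentile of each array was subtracted. The ratios of 2 and 0.5 are those of the methods. A bound uses the lowest intensity called well above background on the array, or the probe's own where higher. The number of arrays limits the precision. Named keratins are the simple keratins and those past the ratio in a line or between OR1 and OR2. A few others are given as values of a group. The values of 1 listed gene and some probe sequences are not reported here. The keratins, lists, motifs and alternatives were chosen with earlier results of these data known. Accessions of 61 of 64 keratin probes were found in the RefSeq table, 61 with the same symbol. The counting was tested on simulated data. Alternatives changed the scaling (quantile, median, none, 7 spike-in probes), background correction (normexp, offset 50), background filter, outlier spots, probe choice and ratio (4 or 1.5), and fitted limma to both resistant lines against H1975. Python 3.11.15, numpy 2.4.6, pandas 2.3.3, matplotlib 3.10.9, R 4.3.3 and limma 3.58.1 were used.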

Additional observations from a re-analysis of the deposited data

How the results depend on the processing

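No ratio of a keratin past the limit changed sign on the log2 scale under any alternative run. The stratified median in OR1 did, under spike-in scaling. Of 254 alternative values of single named keratins, 222 moved by less than the technical SD and 32 by more, 11 of these under normexp and 11 under spike-in scaling. Many could hardly move. The 20 values with all 3 arrays above background repeat the reported ratios, and keeping outlier spots (26 values) added no keratin spot. Leaving out the background filter changes bounds only. Spike-in scaling moves all measured OR1 ratios by 1 common step. The tally is therefore not a measure of how stable the ratios are. Against 75th percentile scaling, the OR1 median over all genes shifted on the log2 scale by −0.60 under spike-in scaling, −0.19 unscaled and −0.11 with median scaling, and OR1 ratios under these are read relative to that shift. Spike-in scaling gave 8 keratins lowered in OR1, 3 raised in both lines and 6 past the ratio between OR2 and OR1, a simple keratin median of −1.25 and a stratified median of −0.18 in OR1. Normexp gave 4 raised in OR1, 0 between OR2 and OR1, and a stratified median of 0.47 in OR2. The simple keratin median in OR2 was −0.46 with quantile scaling and −0.46 with the authors' normalized intensities.

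Requiring all 3 arrays above background left 3 raised in OR1, 3 raised in both lines and 0 between OR2 and OR1. Without the background filter 13 were raised in OR2 and 10 passed between OR2 and OR1, most of the added ones dim on every array. A ratio of 4 gave 4 raised and 2 lowered in OR1, 3 raised and 2 lowered in both lines and 1 between OR2 and OR1. A ratio of 1.5 gave 7 lowered in OR2 and 7 between OR2 and OR1. Limma took OR1 and OR2 as 2 samples, which assumes that the lone H1975 array varies like them and leaves 1 residual degree of freedom. With 1 H1975 array only its effect sizes are given. The 3 largest mean log2 rises over H1975 among keratins were 4.83 (KRT32), 4.17 (KRT17) and 3.77 (KRT14). The largest fall was −2.58 (KRT7). Limma used the 22417 genes above background on at least 1 array, without bounds. The KRT32 value therefore rests on an H1975 reading of 5.61, which was not well above background. The cause of these shifts was not tested.

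With 1 array per line no replicate was left out. No paired analysis was possible because each line has 1 array and the labels carry no replicate numbers. Keratins dim on every array are limited by signal over background, and a change below it was not detectable.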

Other observations

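Keratin-associated genes, whose products embed hair keratins in the hair shaft, were mostly not above background. Of 92 such genes, 36 were above background on at least 1 array. Raised were 0 in OR1 and 0 in OR2, against 9.17% and 7.72% of all genes. Lowered were 2 in OR1, 4 in OR2 and 2 in both lines, against 9.58%, 8.7% and 6.32% of all genes. KRTAP3-3 and KRTAP19-8 were lowered in OR2 alone, with ratios of 0.417 and 0.422, against 0.604 and 0.557 in OR1. KRTAP1-3 read 3433 in H1975 against 1100 in OR1 and 1253 in OR2, with ratios of 0.366 and 0.355. KRTAP1-4 read 8565, 2202 and 4181, with ratios of 0.293 and 0.475. The median log2 ratio of those with a ratio was −0.18 in OR1 and −0.23 in OR2.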
